A study of Rattus norvegicus with 9 samples.

Results

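Neurotrophin signalling was described here by 7 genes of the 37209 in the count table, taken by their symbols: the ligand genes Bdnf and Ntf3, the Trk receptor genes Ntrk2 and Ntrk3, the p75 receptor gene Ngfr, the sortilin gene Sort1 and the neuropeptide precursor gene Vgf. All 7 are typed as mRNA in the table, and all 7 were among the 16837 genes with enough counts to be tested. The values came from RNA sequencing of the frontal cortex, which the study calls the prefrontal cortex, of 9 male Wistar rats aged 14 weeks. The study examined whether electroacupuncture (EA), electrical stimulation through needles, alters the cortex of adult rats that had been separated from their mothers early in life. Control rats (A1, A2 and A6) stayed with their mothers until weaning at postnatal day 21. Rats of the MS group (B3, B4 and B6) had been kept apart from the mother for 4 h a day from postnatal day 1 to 21. The MS+EA rats (C3, C10 and C16) had gone through the same separation and, every other day from postnatal day 61 to 81, received EA at the points Baihui and Yintang under isoflurane. Control and MS rats were given the anaesthesia alone, so needling and current cannot be told apart. No sham EA rats were sequenced. Which litter a rat came from is not stated for these samples, and the p-values measure the spread between rats that may share a litter.

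Neurotrophins are secreted proteins that keep neurons alive and strengthen their synapses. Each is made as a longer proneurotrophin that is cut to the mature form. Mature BDNF acts mainly through TrkB, the product of Ntrk2, and NT-3, the product of Ntf3, acts mainly through TrkC, the product of Ntrk3. The uncut forms bind p75 together with sortilin, an arrangement known for opposing the Trk receptors, and sortilin also directs proBDNF into secretory vesicles. Vgf encodes the precursor of several secreted peptides and is known as a gene that BDNF and neuronal activity induce. In the cortex Bdnf is transcribed by excitatory neurons from several promoters, some of them responsive to activity through the factor CREB.

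CREB binds the cAMP response element, whose full form reads TGACGTCA and whose short form reads CGTCA, or TGACG on the other strand. The RefSeq promoter windows for the rat (assembly GRCr8, 250 bases before a start) held entries for 4 members, with 6 windows for Bdnf, 3 for Ntf3 and 1 each for Sort1 and Vgf. The 2 windows with either form are shown because they belong to the ligand gene and to the member with the largest log2 fold change between EA and MS rats. The Vgf window holds the full element, beginning 90 bases before the start, and it contains both overlapping short forms. The fourth Bdnf window holds a single short form 35 bases before the start. Both are printed 5′ to 3′ on the gene's strand, as the 150 bases that precede the start, with the element in capitals.
Vgf, GRCr8 chr12:25277021-25277170, minus strand: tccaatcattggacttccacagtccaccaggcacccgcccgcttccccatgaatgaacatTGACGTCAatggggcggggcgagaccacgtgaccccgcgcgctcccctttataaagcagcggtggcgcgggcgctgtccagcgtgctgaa
Bdnf, GRCr8 chr3:116637708-116637857, plus strand: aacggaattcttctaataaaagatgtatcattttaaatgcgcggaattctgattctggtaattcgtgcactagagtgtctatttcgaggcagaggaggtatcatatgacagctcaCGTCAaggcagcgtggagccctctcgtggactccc
Over all 33469 windows, searched on both strands, the full form occurred in 1.59% and the short form in 18.2%, so a short form by itself is a common match. A match describes letters and not a bound site. The counts were mapped to another assembly, Rnor_6.0, and are sums over a gene, so the Bdnf transcripts from its different promoters, and the full-length and truncated receptors of Ntrk2, cannot be told apart in them.

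The 9 libraries held 12479905 to 19007907 counts, and the 3 EA libraries (12479905 to 14913736) were all below the 6 others (at least 16106381). The share of counts on noncoding genes was 1.90 to 2.13% in EA rats and 1.62 to 1.85% in the others, with no overlap. Of the marker lists, hypothalamic neuron genes were near 0 in 8 rats (0.915 to 6.10 CPM in sum) but at 48.2 CPM in MS rat B4, which also had the highest sum of meningeal fibroblast genes. That sum was 44.1 to 54.3 CPM in Control, 63.3 to 478 CPM in MS and 64.1 to 257 CPM in EA rats, so all 6 separated rats lay above the Controls, and 6 of its 7 genes were higher in MS than in Control rats at an unadjusted p under 0.05 and none at an adjusted p under 0.05 in edgeR. Mural cell genes were likewise at 79.9 to 82.5 CPM in Control and at 94.3 to 196 CPM in the separated rats. Levels are given as CPM, counts-per-million after TMM scaling of each library. With 3 rats a group the smallest two-sided p of an exact permutation test is 0.1, so the tests below are edgeR's quasi-likelihood tests, which borrow information on the spread across genes, with Benjamini-Hochberg adjustment over all 16837 genes. A gene was called differentially expressed at an adjusted p under 0.05 with a fold change above 1.5. In bulk tissue, fewer cells of a type and less RNA per cell cannot be told apart.

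None of the 7 neurotrophin genes was called in any comparison. Between MS and Control rats, Ntrk2, Ntrk3 and Sort1 had almost equal means, while the means of Bdnf and Ntf3 in MS rats were above those in Control rats by less than the rats of a group differed among themselves. Between MS+EA and MS rats all 7 means were on the lower side, Ntrk3 by a log2 fold change of only -0.017. Of all tested genes, 50.1% were on the higher side in that comparison. Vgf (log2 fold change -0.56) and Sort1 (-0.15) were lower in each of the 3 EA rats than in any MS rat. These groups did not overlap in 17.9% of all tested genes. Neither Vgf nor Sort1 passed the adjusted threshold in edgeR's test (adjusted p = 0.245 for Vgf and 0.369 for Sort1). In the plot of levels by rat these are the panels in which the triangles lie below the squares.

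**Figure D1:**
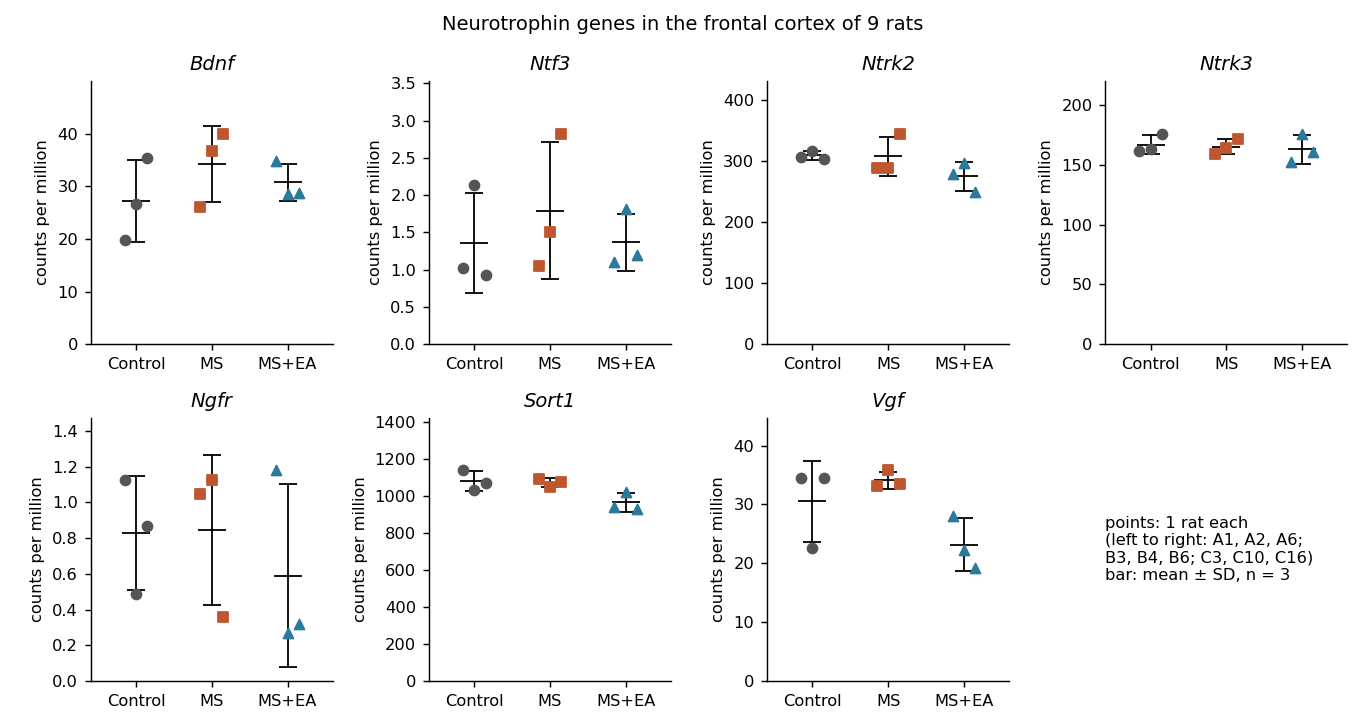
Counts-per-million (CPM, vertical axis, from 0) of the 7 genes in Control (circles), MS (squares) and MS+EA (triangles) rats, 1 point a rat, with mean ± SD (n = 3). Vgf and Sort1 have no overlap between MS and MS+EA rats, while the groups overlap in every pair for Bdnf, Ntf3, Ntrk3 and Ngfr.

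Bdnf, the ligand of TrkB, was at 19.8, 26.6 and 35.4 CPM in Control rats A1, A2 and A6. It was at 26.1, 36.7 and 40.0 CPM in MS rats B3, B4 and B6, and at 34.8, 28.6 and 28.8 CPM in EA rats C3, C10 and C16. The lowest rat was a Control and the highest an MS rat, 2.02-fold apart, and the 3 groups overlapped in every pair. The means were 27.3 ± 7.81 CPM in Control, 34.3 ± 7.23 CPM in MS and 30.7 ± 3.54 CPM in EA rats (SD, n = 3). The log2 fold change of MS against Control was 0.33 (SE 0.194, 95% interval -0.088 to 0.75, edgeR adjusted p = 0.568). That interval reaches from a small deficit to a 1.68-fold excess in MS rats. Single rats moved this value by more than 1.5 times, to 0.14 without A1, 0.21 without B6 and 0.56 without A6. EA against MS rats gave -0.15 (SE 0.194, interval -0.58 to 0.27, adjusted p = 0.784 in edgeR). EA against Control rats gave 0.18 (SE 0.196, edgeR adjusted p = 0.638), and without Control rat A1, the lowest of all, this value was -0.012. Counts of 362 to 665 a rat leave a counting error of 4.24 to 4.85% of a group's mean, while the rats differed by an SD of 28.7% of the mean in Control, 21.1% in MS and 11.5% in EA rats. Each rat is 1 library, so differences between animals, dissections and library preparations cannot be told apart in that spread.

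Ntf3, the gene of NT-3, had 15 to 47 counts a rat. Its level was 1.02, 2.13 and 0.933 CPM in Control rats, 1.05, 1.501 and 2.83 CPM in MS rats, and 1.11, 1.81 and 1.19 CPM in EA rats, each in the order given above. MS rat B6 stood highest, as it did for Bdnf and Ntrk2, and in each group 1 rat lay well above the other 2. The log2 fold change was 0.40 for MS against Control (SE 0.439, interval -0.55 to 1.35) and -0.38 for EA against MS (SE 0.446, interval -1.35 to 0.59), with edgeR adjusted p-values of 0.794 and 0.764. Without rat B6 both values changed sign, to -0.093 and 0.11. EA and Control rats had nearly the same mean (log2 fold change 0.019, SE 0.454, edgeR adjusted p = 0.988), with an interval of -0.96 to 1.003. The SD between rats was 49.3% of the mean in Control and 51.5% in MS rats, where counting error alone would give 21.9 and 19.5%.

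Ntrk2, the gene of the BDNF receptor TrkB, was at 307, 317 and 304 CPM in Control rats, which kept within an SD of 2.14% of their mean. MS rats were at 289, 289 and 345 CPM, so that B3 and B4 lay below all Controls and B6 above them. EA rats were at 278, 297 and 250 CPM, each below the lowest Control, and C16 was the lowest of the 9. MS against Control gave a log2 fold change of -0.0077 (SE 0.0836, interval -0.19 to 0.17, edgeR adjusted p = 0.986). Both EA comparisons gave slightly lower means in EA rats, -0.16 against MS (SE 0.0839, interval -0.34 to 0.022, edgeR adjusted p = 0.453) and -0.17 against Control (SE 0.0839, interval -0.35 to 0.014, adjusted p = 0.262). All 3 intervals lie inside a 1.5-fold change in either direction.

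Ntrk3, the gene of the NT-3 receptor TrkC, varied least of the 7 across all 9 rats, 1.15-fold from lowest to highest. Control rats were at 161, 163 and 176 CPM, MS rats at 159, 164 and 172 CPM, and EA rats at 153, 176 and 160 CPM. The lowest and the highest of the 9 were both EA rats, C3 and C10. The log2 fold changes were -0.015 (MS against Control, interval -0.17 to 0.14), -0.017 (EA against MS, interval -0.17 to 0.14) and -0.032 (EA against Control, interval -0.18 to 0.12), with edgeR adjusted p-values of 0.966, 0.945 and 0.837. The 3 intervals together run from 0.880 to 1.10 times the level of the compared group.

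Ngfr, the gene of p75, was close to the lower end of what these libraries measure, with 4 to 21 counts a rat. Control rats had 21, 8 and 14 counts (1.12, 0.488 and 0.870 CPM), MS rats 18, 18 and 6 counts (1.05, 1.13 and 0.361 CPM), and EA rats 17, 4 and 4 counts (1.179, 0.268 and 0.318 CPM). The highest and the lowest of the 9 rats, C3 and C10, were again both EA rats. Their SD was 87.1% of the mean, of which counting error alone would give 41.4%. The log2 fold change of EA against MS was -0.50 (SE 0.619, interval -1.85 to 0.84, edgeR adjusted p = 0.777) and that of MS against Control 0.021 (SE 0.582, interval -1.24 to 1.28, adjusted p = 0.994). EA against Control gave -0.48 (SE 0.617, edgeR adjusted p = 0.693). Both EA values hung on single rats, at -1.51 against MS and -1.49 against Control without C3, and at -0.15 and -0.13 without C10. Genes of basal forebrain cholinergic neurons, whose fibres carry p75 in the cortex but whose cell bodies lie outside it, were low. Their sum was 4.15 to 5.35 CPM in Control, 4.26 to 5.29 CPM in MS and 2.23 to 4.02 CPM in EA rats. The EA rats thus lay below all others in this sum, though narrowly (4.02 against 4.15 CPM). Only 3 of the 4 genes had enough counts to be tested, and each of these overlapped between EA rats and both other groups. Against Control, Chat, Slc5a7 and Slc18a3 had log2 fold changes of -0.70, -0.11 and -0.89 (edgeR adjusted p = 0.380, 0.872 and 0.512). The part of these genes in the Ngfr values was not tested.

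**Figure D2:**
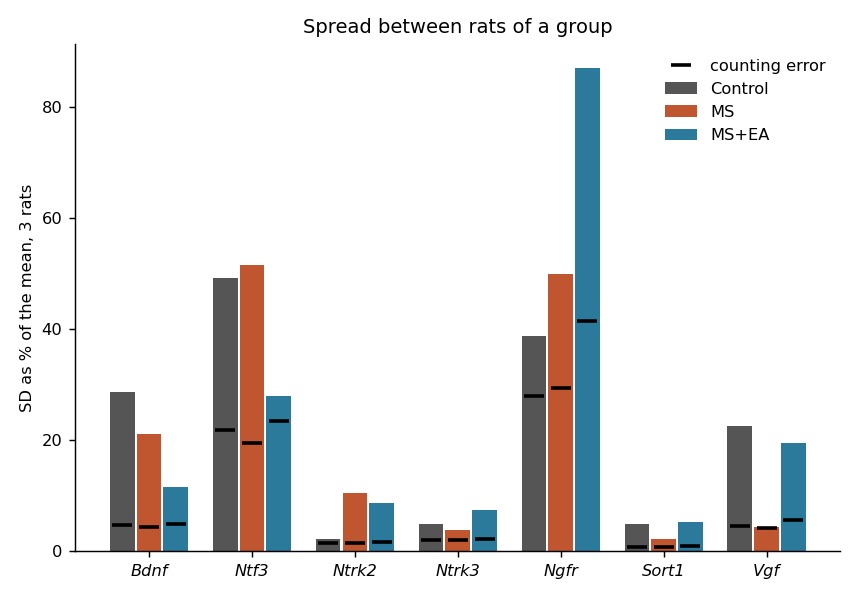
SD between the 3 rats of a group as a percentage of the group mean (bars, from 0), with the part that counting error alone would give (black lines), for each of the 7 genes. Ngfr and Ntf3, with the fewest counts, have the tallest bars and lines, while in Bdnf the bars stand far above the lines.

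Sort1, the sortilin gene, had the most counts of the 7, 11725 to 21277 a rat. Control rats were at 1139, 1035 and 1072 CPM and MS rats at 1092, 1048 and 1078 CPM. EA rats were at 940, 1024 and 932 CPM, each below every one of the 6 others, though C10 was close to Control rat A2. MS and Control rats had almost the same mean (log2 fold change -0.012, SE 0.0654, interval -0.15 to 0.13, edgeR adjusted p = 0.969). EA against MS rats gave -0.15 (SE 0.0655, interval -0.29 to -0.010), with an unadjusted p of 0.0378 and an adjusted p of 0.369 in edgeR. EA against Control rats gave -0.16 (SE 0.0655, interval -0.31 to -0.022), with an unadjusted p of 0.0266 and an adjusted p of 0.159 in edgeR. The interval against MS places the EA mean between 0.816 and 0.993 times the MS mean, inside a 1.5-fold change.

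Vgf, the neuropeptide precursor gene, was at 34.5, 22.6 and 34.4 CPM in Control rats. MS rats were at 33.1, 35.8 and 33.4 CPM, a range narrow enough that the SD of 4.25% of the mean was about the counting error of 4.21%. EA rats were at 28.03, 22.3 and 19.2 CPM, all below the MS rats, and 2 of the 3 below Control rat A2, which had 370 counts against 645 and 554 in the other Controls. EA against MS gave a log2 fold change of -0.56 (SE 0.165, interval -0.91 to -0.20), a mean 0.680 times that of MS rats, with an unadjusted p of 0.00526 and an adjusted p of 0.245 in edgeR. In size this difference exceeded that of 92.0% of the genes tested. DESeq2 on the same rats gave -0.56 with an adjusted p of 0.0457, under the p threshold, but the fold remained below 1.5, so Vgf was not called there either. EA against Control gave -0.40 (SE 0.165, interval -0.75 to -0.037, unadjusted p = 0.0330, edgeR adjusted p = 0.179), and without rat A2 it was -0.57 (adjusted p = 0.0504). MS against Control gave 0.16 (SE 0.162, interval -0.19 to 0.51, edgeR adjusted p = 0.772), and this was -0.021 without A2.

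Counted together, none of the 7 was called by edgeR, DESeq2 or limma-trend. In edgeR this was none for MS against Control, where 0.0238% of all tested genes were called, none for EA against MS (0.0178% of all genes) and none for EA against Control (1.37% of all genes). At an unadjusted p under 0.05, MS against Control held 0 of the 7, beside 7.06% of all genes higher and 3.55% lower in MS rats. EA against MS held 2 lower members, Sort1 and Vgf, beside 6.42% of all genes lower and 6.01% higher. EA against Control held the same 2 lower members, beside 10.6% of all genes lower and 11.9% higher. The groups did not overlap in 0 members for MS against Control (17.6% of all genes), in 2 for EA against MS (Sort1 and Vgf, 17.9% of all genes) and in 2 for EA against Control (Ntrk2 and Sort1, 25.9% of all genes). The medians of the 7 log2 fold changes were 0.021, -0.16 and -0.16 in these 3 comparisons, and those of all tested genes were -0.0014, 0.00059 and 0.0055. The comparisons share their rats, MS or EA or Control in each pair, so the EA values against MS and against Control are not 2 independent observations.

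**Figure D3:**
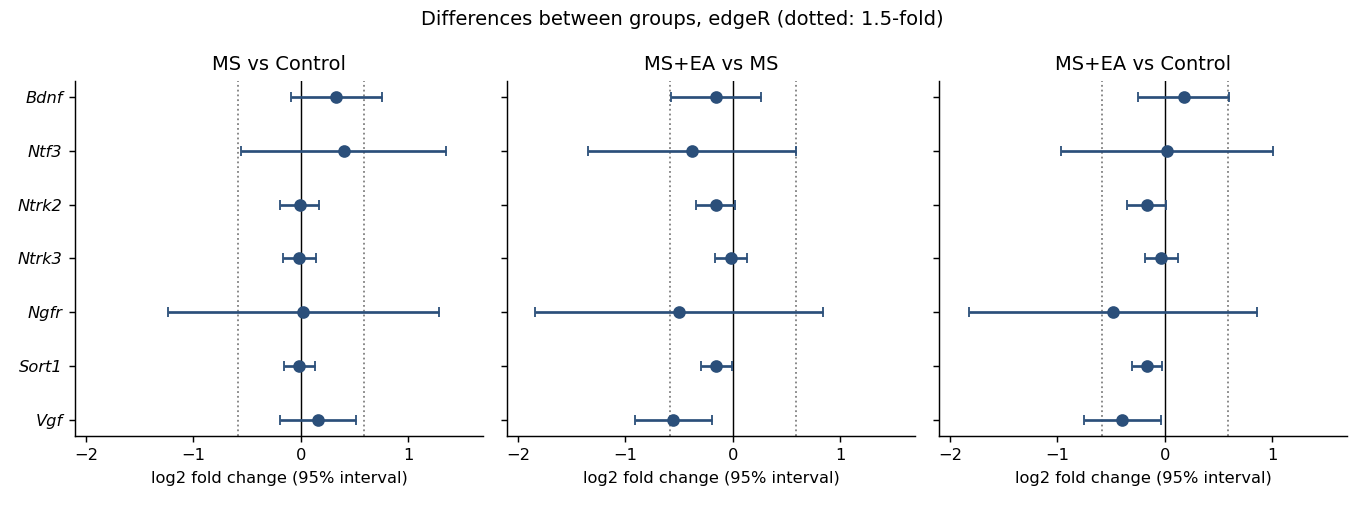
Log2 fold change (horizontal axis, points) with its 95% interval (bars) of each gene in the 3 comparisons, from edgeR, with dotted lines at a 1.5-fold change. Intervals of Ntrk2, Ntrk3 and Sort1 are narrow and inside the dotted lines in every comparison, those of Ngfr and Ntf3 reach beyond them on at least 1 side, and the Vgf interval for MS+EA against MS lies wholly below 0.

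Markers of excitatory neurons, the cells that transcribe Bdnf, were set beside these values. The summed level of the 5 markers was 3882 to 4513 CPM in Control, 3954 to 4008 CPM in MS and 3373 to 3508 CPM in EA rats, so that EA rats lay below all others as they did for Sort1. The sum is carried by 2 of the 5, Slc17a7, the vesicular glutamate transporter, and Camk2a, a kinase of excitatory synapses. Against Control these had log2 fold changes of -0.30 and -0.36 in EA rats (edgeR adjusted p = 0.0207 and 0.0387), and against MS -0.18 and -0.28 (edgeR adjusted p = 0.303 and 0.260). Neurod6 and Tbr1, nuclear factors of the list, had log2 fold changes of 0.29 and -0.010 against Control (edgeR adjusted p = 0.374 and 0.961). Relative to the Control mean, EA rats C3, C10 and C16 were at 80.7, 83.3 and 80.0% for the marker sum, at 86.9, 94.7 and 86.2% for Sort1 and at 91.9, 73.1 and 62.8% for Vgf. EA rat C3 was the lowest of the 9 for the summed pan-neuronal markers (3722 CPM against 4120 to 4873 CPM in the others). All 6 oligodendrocyte markers had higher means in EA than in MS rats (median log2 fold change 0.44), 1 of them, Mog, at an unadjusted p under 0.05 (edgeR adjusted p = 0.300), and their sum overlapped between the groups, at 1742 to 2773 CPM in MS and 1932 to 3999 CPM in EA rats. Of the 8 astrocyte markers, 6 had lower and 2 had higher means in EA than in MS rats (median log2 fold change -0.16). Their sum overlapped slightly between these groups, at 5886 to 6159 CPM in MS and 4964 to 5905 CPM in EA rats. The part of all these markers, of the lower EA depth and of the noncoding share in the values of Sort1, Vgf and Ntrk2 was not tested.

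**Figure D4:**
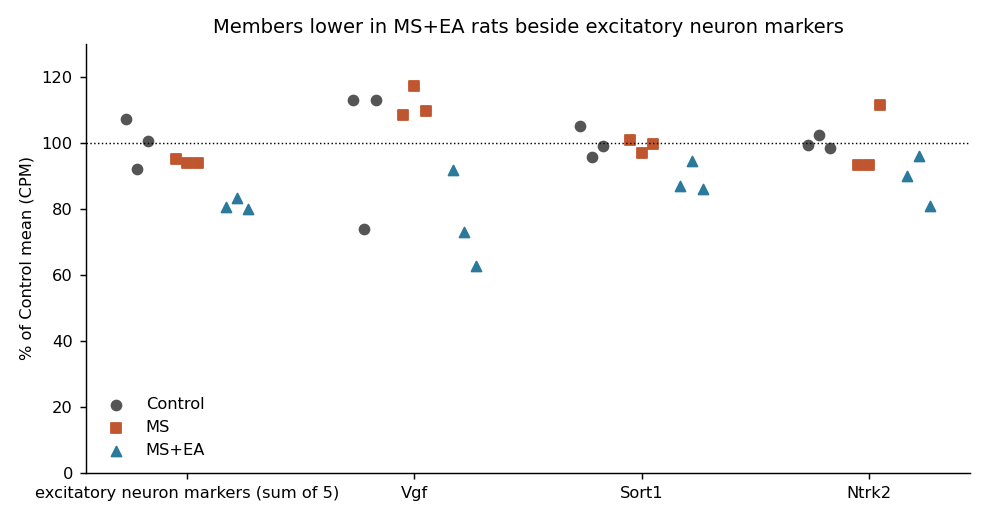
Level of each rat as a percentage of the Control mean (vertical axis, from 0) for the summed excitatory neuron markers and for Vgf, Sort1 and Ntrk2. MS+EA rats (triangles) lie below all others for the marker sum and for Sort1, and Vgf spreads more widely than the other 3.

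Within a library, the ratio of 2 genes' counts does not depend on the depth or on the scaling. It was read here only between rats and chosen after the values were seen. The ratio of Bdnf to Vgf counts was 0.574, 1.178 and 1.03 in Control rats, 0.789, 1.02 and 1.20 in MS rats, and 1.24, 1.28 and 1.502 in EA rats, so that the 3 EA rats held the 3 highest ratios. It uses the same Vgf counts as above, where each EA rat lay below every MS rat, so it is not a separate observation. The ratio of Ntrk2 to Ntrk3 counts was 1.90, 1.94 and 1.73 in Control, 1.81, 1.76 and 2.01 in MS and 1.82, 1.69 and 1.56 in EA rats, with overlap in each pair of groups. The ratios of Bdnf to Ntf3, Bdnf to Ntrk2 and Ngfr to Ntrk2 were also computed. In each of them the EA rats overlapped both other groups.

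For each member, the tested genes whose log2 CPM followed it most closely over the 9 rats were listed as a description, since the best of 16837 genes correlates highly whatever the cause and all genes of a rat share its library. Sort1 was followed most closely by Stx1a (Pearson r = 0.972), which encodes the presynaptic protein syntaxin, and by Fbxo34 (0.966). Vgf was followed by Armc5 (0.979) and by Rims4 (0.977), a gene of the presynaptic active zone family. For Bdnf these were Arpc5l (0.961), of the actin-nucleating complex, and Lemd3 (0.950). Ntrk2 was followed by Trpv2 and Ervfrd-1 (both 0.952), Ntrk3 by Mrps14 (0.955) and LOC102547276 (0.938), and Ntf3 by Fam115a (0.942) and Prune2 (0.937). For Ngfr they were LOC103690006 (0.975) and LOC103691367 (0.942), both at about 1 CPM, where a few counts set the order of the rats.

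The wider pathway was given by 79 listed genes, of which 78 were in the table and 75 were tested. None was called in any comparison by edgeR. At an unadjusted p under 0.05, 6 were higher and 1 lower in MS than in Control rats, beside 7.06% and 3.55% of all tested genes. In EA against MS rats 0 were higher and 13 lower, beside 6.01% and 6.42% of all genes. In EA against Control rats 4 were higher and 20 lower, beside 11.9% and 10.6% of all genes. With adjustment over all genes, only EA against Control left any under 0.05, 2 higher and 10 lower of the 75, beside 3.21% and 2.19% of all tested genes. All of them had a fold change below 1.5, which is why none was called. The excitatory neuron markers Slc17a7 and Camk2a were also lower in EA than in Control rats. The part of these markers, of the lower EA depth and of the noncoding share in the pathway values was not tested.

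**Figure D5:**
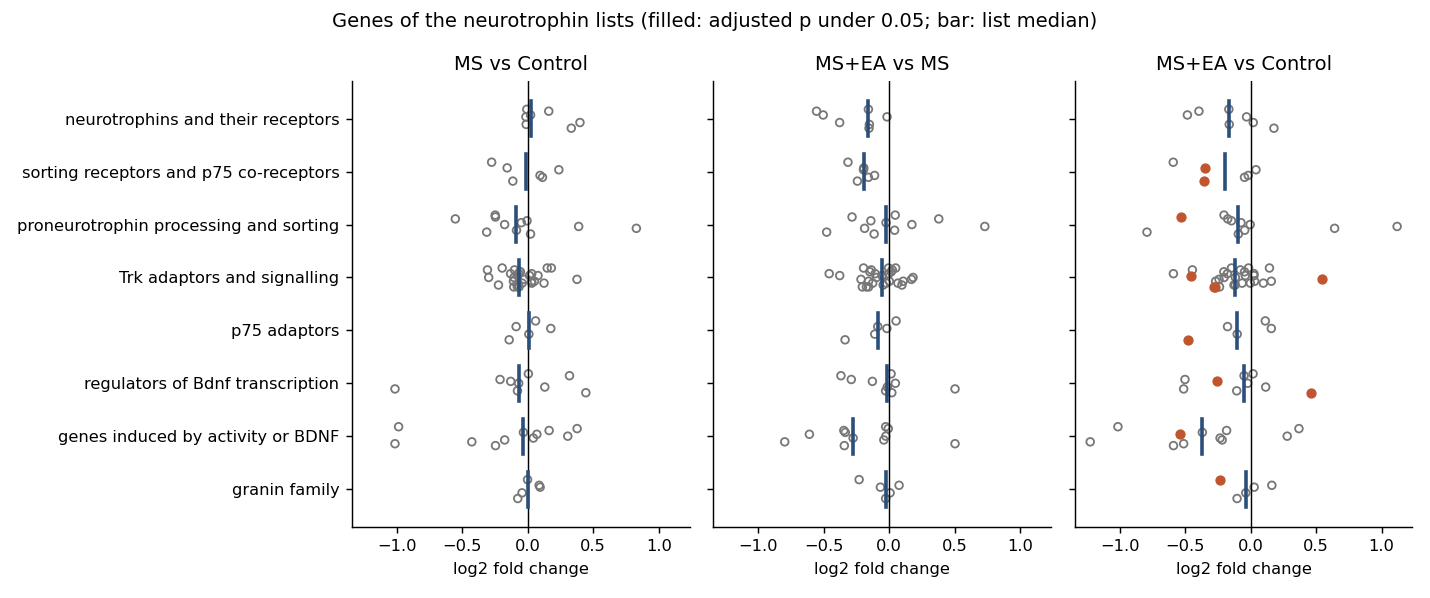
Log2 fold change (horizontal axis) of the tested genes of the neurotrophin lists that are described, in the 3 comparisons, with filled points for an adjusted p under 0.05 in edgeR and a bar at the median of each list. Filled points occur only in the comparison of MS+EA with Control rats, 2 to the right of 0 and 10 to the left.

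Ntf4, the gene of another TrkB ligand, had 0 to 6 counts a rat and was too low to be tested.

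Among the 6 sorting receptors and p75 co-receptors, 2 passed the adjusted threshold in EA against Control rats, both lower. Lingo1, which encodes a partner of p75 in the Nogo receptor complex, was at 560 ± 34.3 CPM in Control, 517 ± 35.9 CPM in MS and 437 ± 11.04 CPM in EA rats (SD, n = 3). Against Control the log2 fold change was -0.36 (SE 0.0710, edgeR adjusted p = 0.0174) and against MS it was -0.24 (adjusted p = 0.243), and no EA rat overlapped either group. Rtn4r, which encodes the Nogo receptor itself, gave -0.35 against Control (edgeR adjusted p = 0.0477) with EA rats at 59.7, 63.1 and 56.4 CPM, all below the lowest Control (65.8 CPM). Sorcs2, a relative of Sort1 that also binds proBDNF, gave -0.59 (edgeR adjusted p = 0.0955) at 6.22 ± 1.64 CPM in EA rats against 9.37 ± 1.21 CPM in Control rats.

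Of the 11 tested genes of proneurotrophin processing, 1 passed in EA against Control rats. Pcsk6, a proprotein convertase, was at 19.8 ± 1.57 CPM in Control and 13.7 ± 0.893 CPM in EA rats (log2 fold change -0.53, SE 0.127, edgeR adjusted p = 0.0348). Mmp9, a protease that cuts proBDNF outside the cell, was at 3.64, 3.35 and 2.86 CPM in Control and 5.48, 5.88 and 6.19 CPM in MS rats, with no overlap (log2 fold change 0.83, SE 0.274, edgeR adjusted p = 0.280). EA rats spanned both ranges for Mmp9, at 2.98, 5.03 and 7.47 CPM. The meningeal fibroblast and mural cell genes given above also separated MS from Control rats, and their part in the Mmp9 values was not tested. Plat, the gene of tissue plasminogen activator, gave -0.79 for EA against Control (edgeR adjusted p = 0.257), and Control rat A6 at 122 CPM was far above the other 2 (28.7 and 45.5 CPM).

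Among the 28 adaptors and kinases downstream of Trk, 1 was higher and 3 were lower in EA than in Control rats at an adjusted p under 0.05. Shc3, a neuronal adaptor that binds activated Trk receptors, was at 189, 148 and 160 CPM in Control, 152, 159 and 159 CPM in MS and 126, 125 and 111 CPM in EA rats. EA rats lay below both other groups (log2 fold change -0.46 against Control, edgeR adjusted p = 0.0157, and -0.38 against MS, adjusted p = 0.195). Map2k2, a kinase of the ERK cascade, gave -0.27 against Control (edgeR adjusted p = 0.0418), and the kinase gene Akt1 was the third. Rps6ka3, whose product phosphorylates CREB, was the higher one, at 20.3 ± 2.80 CPM in Control, 26.3 ± 2.11 CPM in MS and 29.6 ± 3.67 CPM in EA rats (0.55 against Control, edgeR adjusted p = 0.0313). Of the 5 tested p75 adaptors, Arhgdia, which encodes the RhoA inhibitor that p75 displaces, was lower in EA than in Control rats (-0.48, SE 0.0869, edgeR adjusted p = 0.0128), while Maged1 (-0.18) and Traf6 (0.16) did not pass.

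Of the 9 regulators of Bdnf transcription, Creb1 and Mef2d passed in EA against Control rats, in opposite directions. Creb1, the gene of CREB, was at 69.15, 63.0 and 65.8 CPM in Control, 87.6, 94.8 and 86.8 CPM in MS and 87.9, 96.8 and 88.0 CPM in EA rats. Both separated groups lay above all Controls by a similar amount, with log2 fold changes of 0.46 for EA (SE 0.0721, edgeR adjusted p = 0.00795) and 0.44 for MS (SE 0.0718, adjusted p = 0.0578), and EA against MS gave 0.019 (SE 0.0715). The meningeal fibroblast and mural cell sums separated the same rats from the Controls, and their part in the Creb1 values was not tested. Mef2d, which encodes an activity-regulated factor of neurons, was at 313 ± 21.1 CPM in Control, 286 ± 4.98 CPM in MS and 261 ± 8.72 CPM in EA rats (-0.26 against Control, edgeR adjusted p = 0.0400). Crtc1, the gene of a CREB coactivator, gave -0.50 against Control (edgeR adjusted p = 0.0545).

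Of the 11 genes induced by activity or BDNF, 10 had a lower mean in EA than in MS rats and none passed the adjusted threshold. Of all tested genes, 50.1% had a positive log2 fold change in that comparison. The median log2 fold change of this list was -0.28 for EA against MS and -0.37 for EA against Control, where Egr3 passed. Egr3, an immediate early transcription factor that BDNF induces, was at 23.0, 29.1 and 33.1 CPM in Control, 26.4, 31.3 and 31.6 CPM in MS and 21.4, 17.9 and 19.2 CPM in EA rats. As for Vgf, each EA rat was below every MS rat (-0.61 against MS, SE 0.137, edgeR adjusted p = 0.184), and for Egr3 each was below every Control too (-0.54, SE 0.137, edgeR adjusted p = 0.0407). Fos, another immediate early gene, gave -1.23 against Control (SE 0.337, edgeR adjusted p = 0.0538), with EA rat C3 at 16.9 CPM inside the Control range of 15.9 to 32.2 CPM. Homer1, which encodes a synaptic scaffold protein, had higher means in both separated groups than in Control rats. It was at 352 ± 40.6 CPM in Control, 457 ± 50.2 CPM in MS and 455 ± 60.1 CPM in EA rats. MS against Control gave 0.38 (edgeR adjusted p = 0.219), and the EA mean was slightly below the MS mean. All rats were anaesthetized at tissue collection.

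Of the 5 granins, which like Vgf are stored in dense-core vesicles, Scg3 passed in EA against Control rats. It was at 200, 180 and 194 CPM in EA rats and between 218 and 232 CPM in all 6 others (log2 fold change -0.23 against Control, SE 0.0618, edgeR adjusted p = 0.0479, and -0.23 against MS, adjusted p = 0.226). Chgb gave 0.16 against Control (edgeR adjusted p = 0.250) and Chga -0.10 (adjusted p = 0.448).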

How the data were processed

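RNA was measured in the frontal cortex of 9 rats, 3 a group, grouped by the samples' labels. The authors depleted rRNA, mapped reads with HISAT2 2.0.4 to Rnor_6.0 (versions from the submitters' processing notes) and deposited whole-number counts per gene without normalization. The counting program, strand setting and handling of reads with several locations are not given in the sources used here, and lengths were not used, so levels of different genes were not compared. Libraries held 12479905 to 19007907 counts.

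In edgeR 4.0.16 (R 4.3.3), filterByExpr (minimum count 10) left 16837 genes, TMM scaled the libraries, and the model had 1 mean for each group of the 9 rats. Quasi-likelihood F tests were Benjamini-Hochberg adjusted over those genes, and calls needed an adjusted p below 0.05 with a fold above 1.5. Each SE was computed as the absolute log2 change over the root of F, and intervals are 95% by t. The counting error is that of Poisson counts. The script was tested on simulated data. Chi-square per degree of freedom within groups was 6.11 to 13.4 over 9 pairs of libraries, so replicates differed by more than counting noise. Members and lists were chosen with earlier results of these data known. Named genes are all members, the 2 genes most correlated with each, and, per pathway list, any called gene, the 3 with the smallest p and all of the first list. Some items that this rule or the marker lists name are not reported here. Akt1 was named outside this rule, after its values were seen, as were the count ratios. Bex3 is in the table under Ngfrap1. Promoters came from RefSeq (GRCr8). Alternatives were DESeq2 1.42.0, limma-trend (limma 3.58.1), other scalings, filters and subsets of rats. Figures used Python 3.11.15 with matplotlib 3.10.9.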

Additional observations from a re-analysis of the deposited data

How the results depend on the processing

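Of 333 member values under alternatives, 310 kept their direction and stayed outside the call, which needs both an adjusted p under 0.05 and a fold above 1.5, while 23 changed sign and none of the 7 members was called under any alternative. Outside the leaving out of rats, the values that changed sign were Ngfr for MS against Control in limma-trend (-0.031) and Ntrk3 for EA against MS scaled by total counts (0.025). Ngfr gave no value at 10 counts in every rat. Vgf for EA against MS ranged from -0.57 to -0.51, with adjusted p under 0.05 in DESeq2 (0.0457) and with every gene of at least 1 count kept (0.0446), and from -0.71 to -0.44 without a rat (-0.51, adjusted p = 0.550, without B4), over a range of adjusted p from 0.0446 to 0.550. Without a rat, Sort1 for EA against MS ranged from -0.20 to -0.13, Bdnf for MS against Control from 0.14 to 0.56 and for EA against MS from -0.32 to -0.029, and Ngfr from -1.51 to -0.15 for EA against MS and from -1.49 to -0.13 for EA against Control.

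Leaving out each rat in turn gave these lowest and highest log2 fold changes where the sign changed. For MS against Control they were -0.093 and 0.86 (Ntf3), -0.099 and 0.034 (Ntrk2), -0.045 and 0.024 (Ntrk3), -0.25 and 0.38 (Ngfr), -0.049 and 0.025 (Sort1), and -0.021 and 0.26 (Vgf). For EA against MS they were -0.65 and 0.11 (Ntf3) and -0.077 and 0.034 (Ntrk3). For EA against Control they were -0.012 and 0.42 (Bdnf), -0.24 and 0.49 (Ntf3), and -0.092 and 0.019 (Ntrk3). The cause was not tested.

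Over all genes, the 4 calls for MS against Control became 68 in DESeq2, 207 with genes of at least 1 count, 11 in a fit of only the rats compared, and 2 to 22 without a rat. The 3 for EA against MS became 14, 72, 1 and 1 to 4, and 0 at 10 counts in every rat. The 230 for EA against Control (210 higher, 20 lower) became 469 with genes of at least 1 count, 910 with no fold threshold and 71 to 304 without a rat (71 without Control rat A1, 121 without EA rat C10), and split 206 to 23 with RLE and 234 to 12 with total counts. Scaling moved the median of all genes by at most 0.043. The labels pair no rats between groups, so no paired analysis was run. Ntf3 and Ngfr had the fewest counts and the widest intervals. The intervals are from the edgeR fit and include the spread between rats, while the counting error given beside some values does not.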
